A study of Homo sapiens with 6 samples.

Results

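The cytosolic ribosomal protein genes were examined in LX-2, a human line of hepatic stellate cells (the collagen-producing cells of the liver), after treatment with recombinant human Sema3C (rhSema3C) or PBS. Members were chosen by symbol, as RPL or RPS followed by a number with or without a copy suffix, together with RPLP0, RPLP1, RPLP2 and RPSA, with pseudogenes left out. The rule found 84 of the 33900 genes in the table, 52 of the large and 32 of the small ribosomal subunit. Of these, 7 were variant copies, that is, close relatives of a main gene, and RPL10L was not analysed here. The comparison was between 3 samples given rhSema3C at 300 ng/ml for 48 h and 3 samples given PBS for the same time, all of genotype WT and grown in DMEM with fetal bovine serum. The labels name the replicates as biological, and 1 cell line stands for all of them.

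A ribosome is built from ribosomal RNAs and a single molecule of most ribosomal proteins, so a growing cell needs these proteins in similar numbers from genes scattered over the genome. Their mRNAs begin with a cytosine and a run of pyrimidines, the terminal oligopyrimidine tract, through which mTORC1 and LARP1 control their translation. Ribosomal proteins made in excess of ribosomal RNA are degraded, and free RPL5 and RPL11 bind MDM2, a ubiquitin ligase of the stress response. Activated stellate cells export large amounts of collagen and therefore depend on translation. Only mRNA was measured here, so neither ribosomes nor proteins were counted.

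Total counts per library lay between 68267808 and 89245585, and mitochondrial genome genes held 4.75% to 5.42% of them with PBS and 3.73% to 3.93% with rhSema3C. Of 9 stellate cell markers, COL1A1, COL3A1, PDGFRB, ACTA2, VIM, TIMP1 and LOX were detected, while COL1A2 (at most 0.144 FPKM) and DES (at most 0.0557 FPKM) were near 0. Of 9 markers of other liver cell types in the table, ALB, APOA1, EPCAM, CDH1, PECAM1, CDH5 and PTPRC did not exceed 0.0865 FPKM. The endothelial marker VWF was at 0.0902 to 0.120 FPKM with PBS and 0.542 to 0.760 with rhSema3C, and CD68, a lysosomal protein used to mark macrophages, at 90.2 to 98.0 and 63.6 to 69.8 FPKM, and their part in the results was not tested. FPKM here means fragments per kilobase of gene, scaled to library size. The 14178 genes averaging 0.5 FPKM or more were tested with edgeR's quasi-likelihood test, and 83 members were among them. RPL3L, the heart and skeletal muscle copy of RPL3, had at most 20 counts in any library and was not tested. Per-gene levels are given as CPM, counts scaled to the TMM-normalised library size, and a gene is called higher or lower at a Benjamini-Hochberg adjusted p below 0.05 over all genes tested.

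The ribosomal protein transcripts divided into a larger group that rose with rhSema3C and a smaller group that fell. In edgeR's quasi-likelihood test 46 of the 83 members tested were higher, against 31.7% of all genes, and 20 were lower, against 30.6%. The remaining 17 were not called, and 62.3% of all genes passed in either direction. The median log2 fold change was 0.22 over the members and 0.024 over all genes tested, which is a median fold of 1.16. The changes were small and wide apart, from -0.60 for RPS26 to 0.88 for RPL36A on the log2 scale, with an SD of 0.33 between members. No member passed a fold change of 2 with a p below 0.05, where 3.42% of all genes were higher and 2.12% lower.

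Replicates lay close together. The median coefficient of variation over the members was 4.73% with PBS and 3.83% with rhSema3C. The groups did not overlap in 66 members, 46 of them with all rhSema3C samples on the higher side, as in 34.6% of all genes, and 20 on the lower side, as in 33.3%. PBS replicate 2 was the lowest PBS library for this set, with 16 of 83 members above their PBS mean and 2 of the 32 of the small subunit. Without it, 45 members were higher and 20 lower, with a median of 0.18. The balance of rises and falls moved with the scaling between libraries. With library size alone, 57 members were higher and 12 lower (39.9% and 24.1% of all genes), and the median of all genes moved from 0.024 to 0.13. With limma on log2(TPM + 1), 63 were higher and 3 lower (48.9% and 17.1% of all genes), with the median of all genes at 0.23. The members' median stood 0.19 above that of all genes under TMM factors, 0.19 above it with library size alone and 0.22 above it with TPM, but 0.32 above it among genes averaging 5 FPKM or more and 0.13 above it with no filter on low genes.

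**Figure D1:**
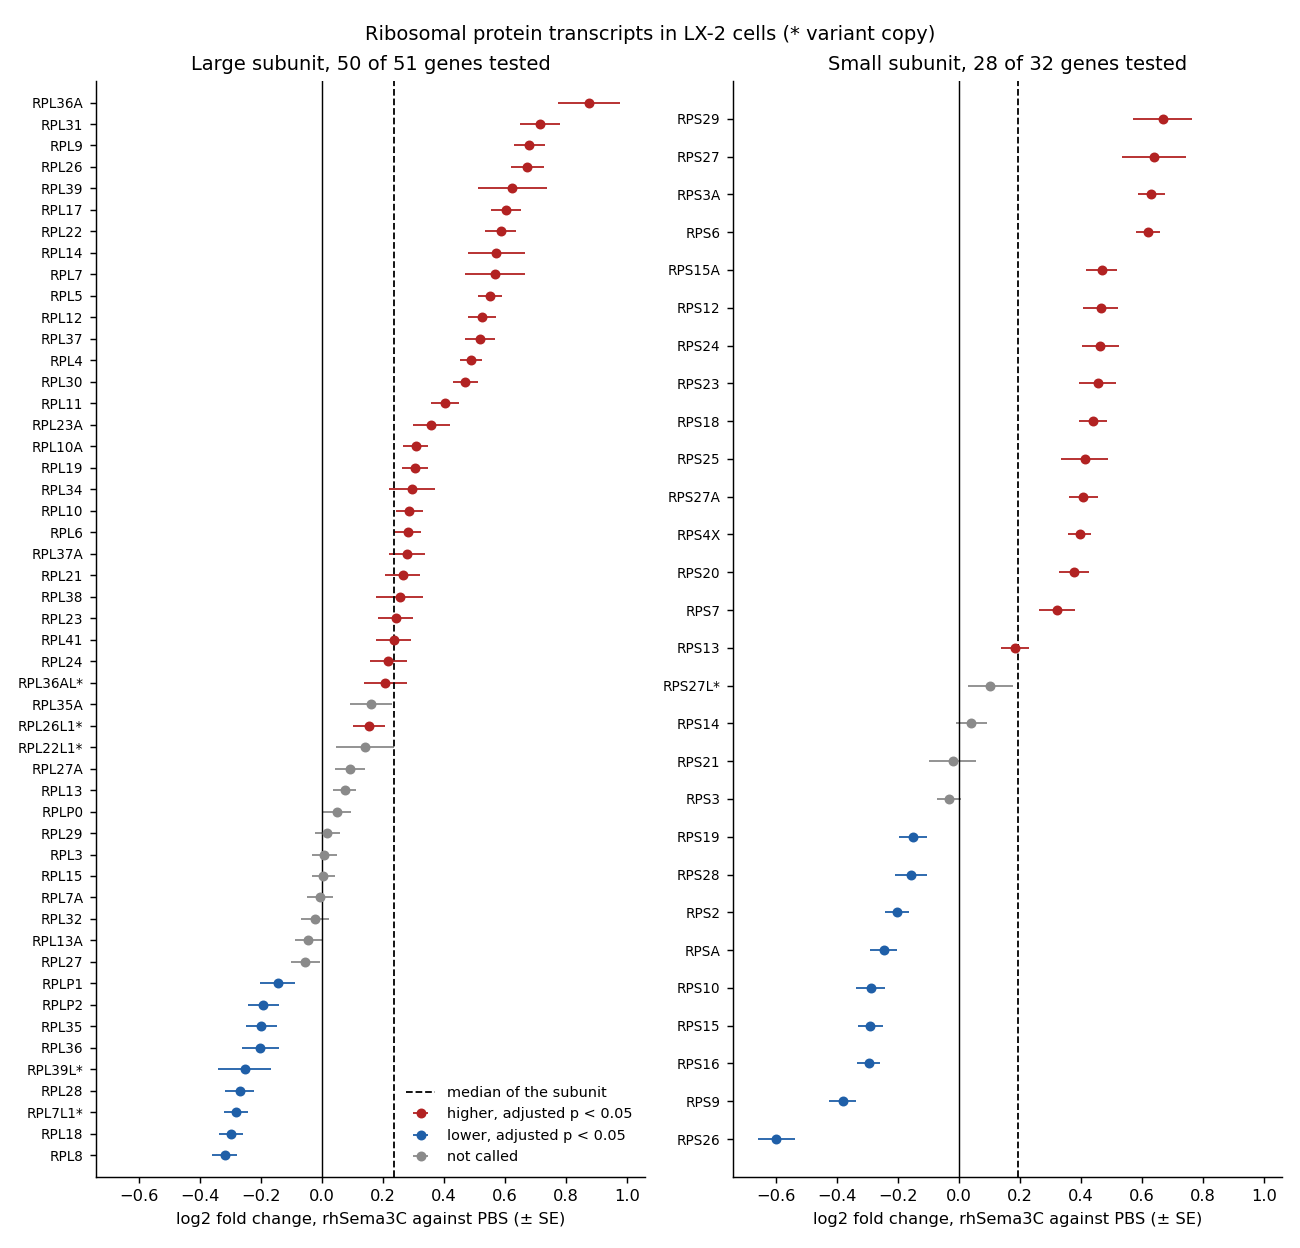
Log2 fold change of ribosomal protein genes, rhSema3C against PBS, with its standard error, for 50 of the 51 genes tested of the large subunit and 28 of the 32 of the small subunit, with 3 samples per group. Red genes were higher and blue genes lower at an adjusted p below 0.05, grey genes were not called, the dashed line is the median of all genes tested of the subunit (0.24 and 0.19), and each subunit holds members on both sides of 0.

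The genes of the large and the small subunit differed little in their medians, at 0.24 and 0.19 on the log2 scale, against an SD of 0.31 and 0.37 between the genes of each subunit. Of the 51 large subunit genes tested, 29 were higher, 9 lower and 13 not called. Of the 32 small subunit genes, 17 were higher, 11 lower and 4 not called. The share of rises was thus 56.9% and 53.1%, and the share of falls 17.6% and 34.4%. Over all genes tested, 31.7% were higher and 30.6% lower. The share of falls was thus near that of all genes in the small subunit and below it in the large. Whether the subunits differ beyond the spread of their genes was not tested, since the genes share the same 6 libraries.

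Summed over genes, the subunits separated more clearly, and the small subunit genes that fell included its most abundant. Together the members held 3.01%, 2.88% and 2.95% of each PBS library and 3.29%, 3.42% and 3.42% of each rhSema3C library. The large subunit share was 1.86% ± 0.045 with PBS and 2.20% ± 0.0418 with rhSema3C, and the small subunit share was 1.09% ± 0.0217 and 1.18% ± 0.0314 (SD, n = 3 per group). Neither subunit's shares overlapped between the groups. After scaling by TMM factors, the large subunit genes summed to 19846, 19014 and 19302 CPM with PBS and to 20918, 21511 and 21442 CPM with rhSema3C. The small subunit genes summed to 11525, 11141 and 11308 CPM with PBS and to 11088, 11564 and 11515 CPM with rhSema3C, and those groups overlapped. The 1216 CPM that small subunit genes gained were met by 1152 CPM that others lost, while large subunit genes gained 2483 CPM and lost 580.3 CPM. Large subunit counts per small subunit count were 1.72, 1.71 and 1.71 with PBS and 1.89, 1.86 and 1.86 with rhSema3C, a ratio that library scaling does not touch. RPL4 alone accounted for 347 CPM of the gain, and RPS2 and RPSA for 241 and 233 CPM of the loss. Median GC content was 48.1% in large and 51.2% in small subunit genes tested. The shares, the sums and the ratio were not recomputed with the trend in GC content, described below, removed.

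**Figure D2:**
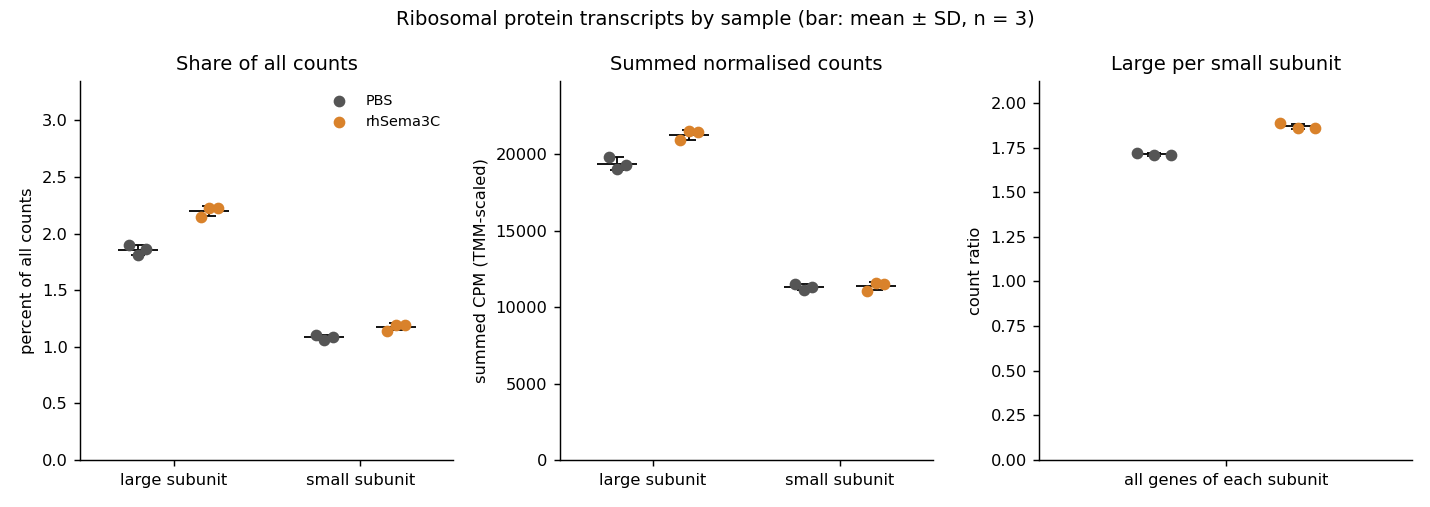
Share of all counts (percent), summed TMM-scaled CPM, and the ratio of large to small subunit counts, with 1 point per sample and the mean ± SD of 3 samples per group. The large subunit and the ratio were higher in every rhSema3C sample, whereas the summed CPM of the small subunit overlapped between the groups.

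Among members averaging 5 FPKM or more, the 6 largest rises were in RPL36A, RPL31, RPL9, RPL26, RPS27 and RPS3A. RPL36A (ENSG00000241343, chrX:101390824-101396155, plus strand on GRCh38), a protein of the large subunit near the exit site for spent tRNA, stood at 18.7, 21.8 and 25.04 CPM in the PBS samples and 37.9, 43.7 and 38.7 CPM in the rhSema3C samples. The groups were well apart, the log2 fold change being 0.88 ± 0.10 (SE; edgeR's quasi-likelihood test, adjusted p = 2.1e-05), a fold of 1.83. RPL31 (ENSG00000071082), which sits at the mouth of the tunnel through which the new protein leaves, went from 58.5, 57.2 and 67.5 to 95.3, 101 and 104 CPM, with a log2 fold change of 0.71 ± 0.0650. RPL26 (ENSG00000161970), also at the tunnel exit, had 186, 174 and 198 CPM with PBS and 279, 304 and 306 with rhSema3C, a log2 fold change of 0.67 ± 0.0552. All 3 of these genes rose without overlap between the groups.

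RPL9 (ENSG00000163682), near the base of the stalk, was at 302, 266 and 284 CPM in PBS and 452, 469 and 443 CPM in rhSema3C samples (log2 fold change 0.68 ± 0.0511). Among small subunit genes, RPS27 (ENSG00000177954), a zinc finger protein, was at 21.0, 23.0 and 28.1 CPM in PBS and 35.2, 36.3 and 40.6 CPM in rhSema3C samples, and RPS3A (ENSG00000145425) at 339, 327 and 329 and 495, 539 and 505 CPM. Their log2 fold changes were 0.64 ± 0.10 and 0.63 ± 0.0442. RPS29, with a mean of 1.73 FPKM, also rose, by 0.67 ± 0.0965 on the log2 scale. Adjusted p-values of these genes in edgeR's quasi-likelihood test ran from 4.5e-07 for RPS3A to 2.5e-04 for RPS27. The 6 largest rises kept their sign under each of the 21 alternative settings, but with the trend in GC content removed RPL31 was at 0.39, RPL9 at 0.41 and RPS3A at 0.41. RPL36A was then at 0.63, and with single libraries left out the value for RPL36A lay between 0.77 and 0.98.

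The falls were led by RPS26, and RPS9, RPL8, RPL18 and RPS16 were also among the 6 largest. RPS26 (ENSG00000197728, chr12:56041351-56044676, plus strand on GRCh38) lies in the channel where mRNA leaves the small subunit and touches the mRNA upstream of the start codon. It had 167, 152 and 175 CPM in the PBS samples and 102, 111 and 114 CPM in the rhSema3C samples. At -0.60 ± 0.0598 on the log2 scale (adjusted p = 6.4e-06 in edgeR's quasi-likelihood test), the transcript was 1.51-fold lower, the largest fall of any member tested. RPS9 (ENSG00000170889), near the mRNA entry, went from 496, 460.1 and 461 to 355, 363 and 370.2 CPM, with a log2 fold change of -0.38 ± 0.0437.

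The remaining 3 were smaller. RPL8 (ENSG00000161016), one of the proteins closest to the peptidyl transferase centre, stood at 1030.0, 1029 and 973 CPM with PBS and 814, 788 and 830.4 CPM with rhSema3C (log2 fold change -0.32 ± 0.0411). RPL18 (ENSG00000063177) was at 486, 459 and 472 and 383, 387 and 383 CPM, and RPS16 (ENSG00000105193), whose tail touches the tRNA at the peptidyl site, at 441, 440.3 and 442 and 352, 367 and 359.5 CPM, with log2 fold changes of -0.30 ± 0.0392 and -0.30 ± 0.0381. In all 5 the groups did not overlap, and edgeR's adjusted p-values ran from 6.4e-06 for RPS26 to 5.5e-05 for RPL18. RPS26 stayed lower past the threshold under each of the 21 alternative settings. RPS9 did not pass once the trend in GC content was removed, and RPL8, RPL18 and RPS16 passed neither then nor in the TPM fit.

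The 3 members with the highest FPKM of each subunit were not called or were lower. RPL19, ranked 5 of all members by FPKM, was higher, with a log2 fold change of 0.30 ± 0.0424. By FPKM, which is per length but uses the authors' own gene lengths, the leading large subunit genes were RPL13A, RPLP0 and RPL8 and the leading small subunit genes RPS2 and RPSA. RPS2, with 719 ± 27.8 FPKM in PBS and 671 ± 10.8 in rhSema3C samples (SD, n = 3 per group), had the highest level of all. Its CPM of 1904, 1831 and 1761 and 1598, 1564 and 1610.4 did not overlap, and the log2 fold change was -0.20 ± 0.0398 (adjusted p = 9.6e-04, edgeR's quasi-likelihood test). The call was lost and the sign turned in the TPM fit (0.024) and with the GC trend removed (0.073). RPL13A, which also takes part in silencing inflammatory mRNAs when released from the ribosome, had 623 ± 32.2 and 649 ± 12.5 FPKM and was not called, with CPM of 1648, 1591 and 1483 against 1506, 1559.8 and 1516. The interval of its log2 fold change was -0.13 to 0.043 (95% confidence). RPL13A was called higher in the TPM fit (0.18) and with the GC trend removed (0.13). Over all 84 members, the order of FPKM levels was nearly the same in the 2 groups, with a Spearman correlation of 0.97 across genes, which are not independent replicates.

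The acidic proteins of the stalk, which recruits the GTPases of translation, did not move with the median in the main edgeR fit. RPLP0, the anchor of the stalk, had 2176, 2017 and 1952 CPM with PBS and 2069, 2103 and 2188 CPM with rhSema3C. The groups overlapped and it was not called, with an interval of -0.04 to 0.14 for the log2 fold change. RPLP0 was called higher with library size alone (0.16), at a mean FPKM of at least 5 (0.15) and in the TPM fit (0.28). With the GC trend removed it was also called higher, at 0.21, where the members' median was 0.21. RPLP1 and RPLP2, which dimerise on RPLP0, were both called lower, at -0.14 ± 0.0575 and -0.19 ± 0.0498. For RPLP1 the values 491, 448 and 488 and 395, 453 and 444 CPM overlapped and the adjusted p was 0.048 in edgeR's quasi-likelihood test, just inside the threshold. This call was lost without PBS replicate 1 or 3 (-0.12 and -0.13) and without rhSema3C replicate 1 or 3 (-0.088 and -0.17). RPLP2 had 136, 129 and 141 CPM in PBS and 115, 125 and 114 CPM in rhSema3C samples. With library size alone neither was called (-0.034 for RPLP1 and -0.082 for RPLP2), nor in the TPM fit (0.082 and 0.036), and RPLP2 was at 0.097 and not called with the GC trend removed.

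RPL5 and RPL11, which join the smallest ribosomal RNA in a particle that can also hold MDM2, both rose. RPL5 (ENSG00000122406) went from 288, 284 and 286 CPM with PBS to 416, 430.2 and 411 CPM with rhSema3C, a log2 fold change of 0.55 ± 0.0389 (adjusted p = 4.7e-07, edgeR's quasi-likelihood test). RPL11 (ENSG00000142676) went from 208, 214 and 223 to 277, 298 and 277 CPM, a log2 fold change of 0.40 ± 0.0457. MDM2 itself stood at 46.1, 35.8 and 44.1 CPM in PBS and 78.3, 87.2 and 84.5 CPM in rhSema3C samples, with a log2 fold change of 0.99 ± 0.0850. The groups did not overlap for any of these 3 genes.

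Other members with a known individual role went in either direction. The mRNA of RPS6, whose protein is the substrate of S6 kinase, rose from 331, 327 and 342 to 501, 521 and 513 CPM (log2 fold change 0.62 ± 0.0397, edgeR's adjusted p = 2.3e-07). RPL10, which completes the large subunit before it joins the small one, rose from 673, 626 and 629 to 766, 783 and 804 CPM (log2 fold change 0.29 ± 0.0429). RPL41, the shortest ribosomal protein, was at 206, 194 and 212 CPM with PBS and 221, 249 and 252 CPM with rhSema3C, higher by 0.24 ± 0.0563 on the log2 scale. RPSA, known also as the laminin receptor, fell from 1522, 1529 and 1399 to 1226, 1281 and 1244 CPM (log2 fold change -0.25 ± 0.0440), a call lost in the TPM fit (-0.018). RPS3, which has a second role in DNA repair and in NF-κB complexes, was not called, at 892, 862 and 897 and 836, 870.1 and 884 CPM, with an interval of -0.11 to 0.044 for the log2 fold change.

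Ribosomal proteins made as fusions did not share a direction. RPS27A, whose transcript encodes ubiquitin ahead of the ribosomal protein, was higher by 0.41 ± 0.0472 on the log2 scale. FAU, a fusion of a ubiquitin-like protein to a small subunit protein, fell from 331, 311 and 326 to 207, 224 and 224 CPM, a log2 fold change of -0.56 ± 0.0465 that is close to that of RPS26. RACK1, the scaffold on the head of the small subunit, was not called, with 1270.2, 1240.0 and 1185 CPM in PBS and 1314, 1279 and 1305 CPM in rhSema3C samples and an interval of -0.00023 to 0.15. FAU and RACK1 carry other symbols and are not among the 84 members.

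Variant copies, which can replace their main protein in some ribosomes, went in both directions. Of the 6 tested, 2 (33.3%) were higher, 2 lower and 2 not called, shares close to those of all genes (31.7% and 30.6%). Their median was 0.12, and the 77 other members had a median of 0.25. RPL39L, a copy used mainly in the testis and in some tumours, was at 20.7, 17.6 and 19.9 CPM with PBS and 16.1, 16.6 and 16.2 CPM with rhSema3C, lower by a log2 fold change of -0.25 ± 0.0871 (edgeR's adjusted p = 0.025). The call was lost without PBS replicate 1 or 3 (-0.20 and -0.23) and without rhSema3C replicate 1 or 3 (-0.25 for each), with library size alone (-0.14), in the TPM fit (-0.022) and with the GC trend removed (-0.13). RPL39, its main gene, was at 19.4, 16.9 and 16.7 and 22.7, 28.3 and 30.8 CPM and rose, by 0.62 ± 0.11. By FPKM, RPL39L had 17.6 ± 1.53 with PBS and 15.9 ± 0.281 with rhSema3C, and RPL39 7.79 ± 0.674 and 12.9 ± 2.01. In mean CPM, RPL39L and RPL39 were near each other with PBS (19.4 and 17.7) and further apart with rhSema3C (16.3 and 27.3). The FPKM values imply gene lengths of 1058 bases for RPL39L and 2180 for RPL39, beside transcripts of 653 and 401 bases in GENCODE v29. Whether their levels drew closer or apart thus depends on the measure. The gene lengths implied by the authors' FPKM values ran from 654 to 10097 bases over the members, which limits any comparison of levels between genes.

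The coding sequences of RPL39 and RPL39L are printed because the calls went in opposite directions in near-identical genes. They are 156 bases each in GENCODE v29, 94.9% identical, and the 8 bases that differ are in capitals. The longest stretch without a difference is 44 bases, and only a read that covers no differing base would fit both genes equally.
RPL39: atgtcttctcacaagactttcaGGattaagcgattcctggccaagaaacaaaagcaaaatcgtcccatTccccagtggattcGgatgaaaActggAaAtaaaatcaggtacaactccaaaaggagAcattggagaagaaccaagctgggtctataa
RPL39L: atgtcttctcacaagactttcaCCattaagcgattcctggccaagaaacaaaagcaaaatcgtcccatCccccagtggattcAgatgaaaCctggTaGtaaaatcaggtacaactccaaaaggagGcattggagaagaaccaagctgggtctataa
How the authors' counting treated such reads is not given in the sources used here.

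RPL7L1, a protein of ribosome assembly rather than a true substitute, fell from 221, 215 and 211 to 181, 173 and 179 CPM (-0.28 ± 0.0405 on the log2 scale), a call lost in the TPM fit (-0.053), and RPL7 rose from 176, 133 and 172 to 216, 260.1 and 237 CPM (0.57 ± 0.0980). RPL22L1 was not called, at 14.4, 15.6 and 15.1 and 16.4, 18.2 and 15.1 CPM, with an interval of -0.045 to 0.33, while RPL22, which represses RPL22L1 in other cells, rose from 108, 98.0 and 108 to 153, 165 and 153 CPM (0.59 ± 0.0511). RPL26L1, at 46.8, 46.4 and 45.3 CPM with PBS and 52.6, 50.1 and 51.6 CPM with rhSema3C, was higher by 0.16 ± 0.0519, against 0.67 for RPL26. It was not called without PBS replicate 3 (0.14), rhSema3C replicate 1 (0.14) or rhSema3C replicate 3 (0.15), and stood at 0.042 with the GC trend removed, also not called. RPL36AL, a retrotransposed copy, was at 47.3, 46.7 and 53.5 and 52.7, 60.3 and 57.4 CPM, higher by 0.21 ± 0.0699, against 0.88 for RPL36A. Its call was lost without PBS replicate 1 or 2 (0.18 and 0.17) and without rhSema3C replicate 2 or 3 (0.16 and 0.20), and with the GC trend removed the sign turned (-0.065). RPS27L was not called, at 31.9, 29.4 and 32.7 and 31.4, 36.0 and 33.5 CPM, with an interval of -0.041 to 0.25. RPL3 was not called either, at 1238, 1229 and 1166 and 1249, 1184 and 1220.5 CPM, and RPL3L had 5, 4 and 10 counts in the PBS and 4, 20 and 0 in the rhSema3C libraries. Coding identity over aligned bases was 90.0% for RPL36A and RPL36AL, 84.2% for RPL26 and RPL26L1, 77.3% for RPS27 and RPS27L, 75.6% for RPL3 and RPL3L, 68.0% for RPL22 and RPL22L1 and 54.8% for RPL7 and RPL7L1. In each of the 6 pairs tested, the main gene had the higher log2 fold change, but the difference within a pair was not tested.

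**Figure D3:**
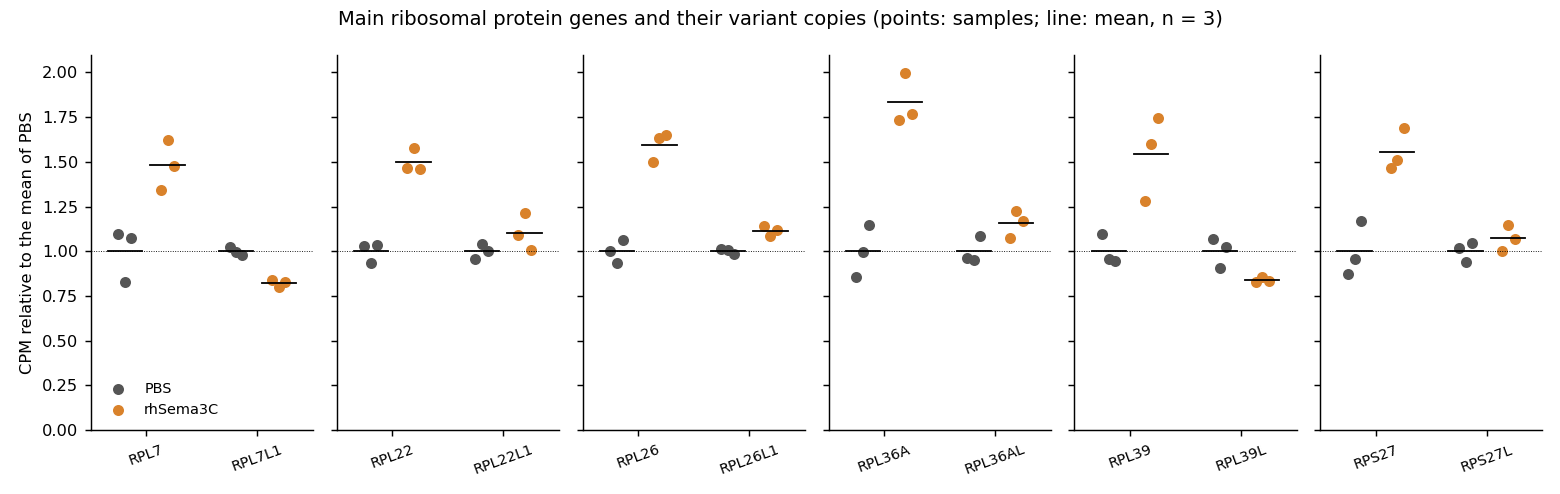
CPM of 6 main ribosomal protein genes and their variant copies in each sample, divided by the mean of the 3 PBS samples of the same gene, with a line at each group mean. The main genes stood at 1.48 to 1.83 times their PBS mean with rhSema3C, and the copies RPL7L1 and RPL39L at 0.823 and 0.839.

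The direction of change followed the base composition of the transcripts. GC content was taken from the GENCODE v29 transcript with the longest coding sequence, and it had a median of 46.9% in the members called higher and 56.9% in those called lower. Of the 12 members under 44% GC, 10 were higher and none lower, with a median log2 fold change of 0.58, where 59.2% of all genes were higher and 6.1% lower. At 44% to 48% the counts were 17 higher and 2 lower of 21, with a median of 0.28, beside 42.6% and 16.9% of all genes. At 48% to 52% they were 15 and 2 of 22, with a median of 0.31, beside 25.2% and 31.7%. At 52% to 56% they were 4 and 5 of 14, with a median of -0.0062, beside 15.8% and 46.0%. Of the 14 members with 56% GC or more, none was higher and 11 were lower, with a median of -0.20, where 9.52% of all genes were higher and 54.6% lower. The Pearson correlation of log2 fold change with GC content was -0.65 and the Spearman correlation -0.66 over 83 members, which share their libraries.

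All genes showed the same gradient, with medians of 0.31, 0.16, -0.037, -0.19 and -0.29 in the same 5 GC classes and a Spearman correlation of -0.49 over 14096 genes. The members' median stood above that of all genes in each class, by most in the class of 48% to 52%. Transcript length had a Spearman correlation of 0.083 with the members' changes. When the trend of each library in GC content was removed, a setting chosen after the data were seen, 46 members were higher and 7 lower (27% and 28.4% of all genes), with a median of 0.21. Of the 46, 39 were higher before, and RPL3, RPL13, RPL13A, RPL29, RPLP0 and RPS14 were among those added. The 7 lower genes included RPS26 (-0.61 ± 0.0595), RPL7L1 (-0.46 ± 0.0366), RPS27L (-0.23 ± 0.0555), RPLP1 (-0.21 ± 0.0558), RPSA (-0.16 ± 0.0419) and RPL27 (-0.14 ± 0.0439). Among the rises described above, RPS6 (0.35), RPL22 (0.31), RPL7 (0.32) and RPL39 (0.40) became smaller and RPL10 (0.51) larger, all still called. RPS26, at 49.0% GC, kept nearly its whole change, and the difference between the subunit medians shrank from 0.041 to 0.010. Whether the gradient arose in the cells or in the preparation of the libraries was not tested.

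**Figure D4:**
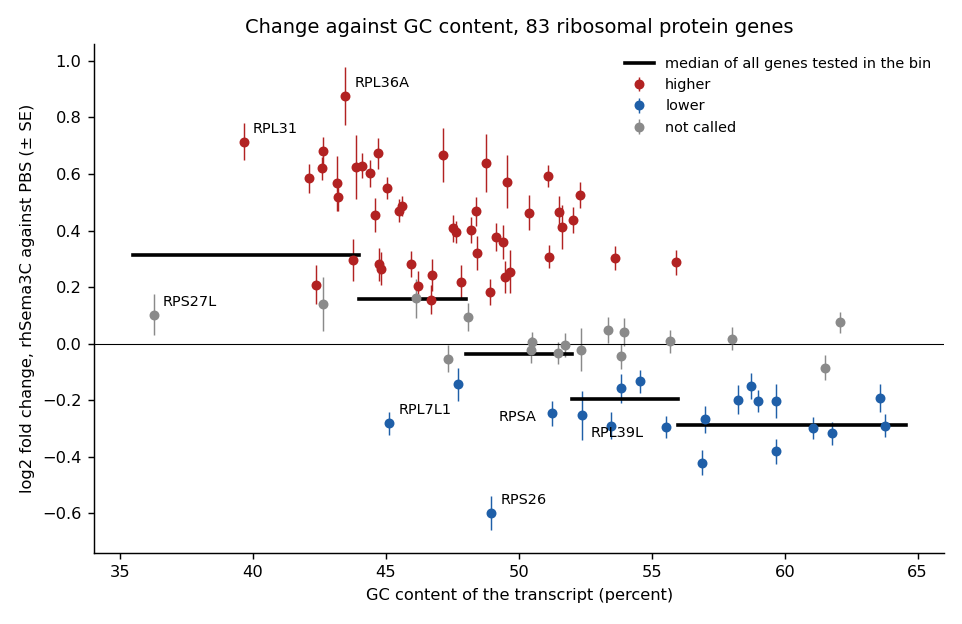
Log2 fold change (± SE) of the 83 ribosomal protein genes against the GC content of their transcript in percent, with 3 samples per group. Black bars are the medians of all genes tested in 5 GC classes, from 0.31 under 44% to -0.29 at 56% or more, and the members fell from left to right with them, while RPS26 and RPL7L1 lay far below.

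Position in the genome followed the same division. The members lie on 21 chromosomes, with 12 of them on the GC-rich chromosome 19, where 10 were lower, RPS9, RPS15, RPS16, RPS19, RPS28, RPL18, RPL28 and RPL36 among them, 2 including RPL13A were not called, and none was higher. The calls of RPS19 and RPS28 were lost without PBS replicate 3 (-0.13 for each) or rhSema3C replicate 1 (-0.11 and -0.12), and that of RPL36 without PBS replicate 3 (-0.18). With the GC trend removed none of the 8 genes named as lower was called, and their values lay between -0.098 for RPS9 and 0.13 for RPS19. The 12 had a median log2 fold change of -0.23, beside -0.22 for all 974 genes tested on this chromosome, of which 150 were higher and 463 lower. The 71 members elsewhere had 46 rises, 10 falls and a median of 0.28. Small nucleolar RNAs, which guide the modification of ribosomal RNA, are encoded in introns of many ribosomal protein genes, and 60 such genes lay inside 28 members. Those hosts had 16 rises (57.1%), 4 falls (14.3%) and a median of 0.25. The 55 other members had 30 rises (54.5%), 16 falls (29.1%) and a median of 0.21. Over all genes tested 31.7% were higher and 30.6% lower, so the share of falls in the other members was near that of all genes.

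The terminal oligopyrimidine tract was read from the RefSeq promoter table (GRCh38.p14), which matched 67 of the 84 members. A cytosine at the annotated start followed by at least 4 pyrimidines was present in 47 of them (70.1%) and in 5.14% of the 27305 genes in the table. It was found in 25 of 36 members called higher, 11 of 15 called lower and 11 of 16 not called. The median log2 fold change was 0.22 for the 47 with a tract and 0.18 for the 20 without, so its presence in this window did not separate rises from falls. The windows below start 10 bases before the annotated start and hold 15 bases from it, with the tract in capitals, for genes that rose.
RPL36A, chrX:101391001-101391025, plus strand: ctcgcggtttCTTTCTTTCCgcgcc
RPL31, chr2:101002279-101002303, plus strand: ccttcgcgctCTTCCTTTCCaactt
RPL26, chr17:8383179-8383203, minus strand: gcgtgtagttCTCTTCCCTTTTgcg
RPS3A, chr4:151099618-151099642, plus strand: cccacttccgCCCTTTTggctctct
RPS6, chr9:19380222-19380246, minus strand: gaagttggccCTCTTTTCCgtggcg
RPL39, chrX:119791616-119791640, minus strand: ccgccagcttCCCTCCTCTTCCTTT
Genes that fell carried tracts of the same kind, shown for comparison.
RPS9, chr19:54200848-54200872, plus strand: gcttccgcgcCTCTTTCTCagtgac
RPL18, chr19:48619164-48619188, minus strand: agcccgttctCTCTTTCCggacctg
RPS16, chr19:39435935-39435959, minus strand: ccctagctttCCTTTTCCggttgcg
RPSA, chr3:39406710-39406734, plus strand: tgccgcctgtCTTTTCCgtgctacc
FAU, chr11:65122120-65122144, minus strand: tcgcttcttcCTCTTTCTCgactcc
The window of RPS26, the largest fall, and that of RPL9, a large rise, had no cytosine at the annotated start, although a pyrimidine run lies a few bases on.
RPS26, chr12:56041908-56041932, plus strand: acataacctcgattttcttccgcca
RPL9, chr4:39458908-39458932, minus strand: taatgacgacagacgttctttcttt
RPL39 had the longest tract of the 67 members matched, with 19 pyrimidines.

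Of 4 short motifs searched on both strands of the promoter window of 300 bases, CCGGAAG, an ETS-type site, was in 35.8% of members and 12.2% of all genes in the table. AAGATGGCG, a YY1-type site, was in 8.96% and 2.14%. CACGTG, the E-box of MYC, was in 7.46% and 8.77%, and the TATA motif TATAAA in 8.96% and 14.0%. Of 69 mitochondrial ribosomal protein genes matched, 43.5% held CCGGAAG and 18.8% AAGATGGCG. Of 44 ribosome assembly factors matched, 38.6% and 9.09% did, so neither motif was particular to the members. CCGGAAG was present in 12 of the 36 matched members that rose and 4 of the 15 that fell. These matches describe the letters of the window only. RPL23, RPL23A, RPL30, RPL37, RPL39L, RPL3L, RPL5, RPL7, RPL8, RPS15A, RPS2 and RPS20 were among the members not matched.

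Ribosomal protein genes have many processed pseudogenes, and 483 such rows stood in the table, with 4.25 ± 0.19 counts per 100 member counts in PBS and 3.97 ± 0.19 in rhSema3C samples (SD, n = 3 per group). The ratio was highest for RPL7 at 34.8%, RPL21 at 33.1% and RPSA at 28.9%. RPL14 was the clearest case of uncertain assignment. Its pseudogenes held 1547, 3275 and 3338 counts in the PBS and 6094, 715 and 715 in the rhSema3C libraries, and RPL14 itself was at 293, 229 and 247 and 334, 418 and 392 CPM. With pseudogene counts added, its log2 fold change went from 0.57 ± 0.0937 to 0.48 ± 0.0503. Added in the same way, RPL7 went from 0.57 to 0.50, RPL21 from 0.26 to 0.28 and RPSA from -0.25 to -0.25, and the counts of 46 higher and 20 lower members did not move. The readthrough gene RPL36A-HNRNPH2 overlaps RPL36A and had 885, 533 and 630 counts with PBS and 44, 507 and 914 with rhSema3C, beside 1604, 1520 and 1647 and 3264, 3998 and 3220 for RPL36A, so the size of that rise is uncertain. Of the members, 38 overlap another gene on the same strand and 32 a gene on the other strand, and the strand setting of the counting is not given in the sources used here.

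Other transcripts known as oligopyrimidine tract mRNAs had a median above 0, as the members did, whereas ribosome assembly factors had one below 0. Of the 25 tested, chosen by name, 18 (72.0%) were higher and 4 (16.0%) lower, against 31.7% and 30.6% of all genes. Their median log2 fold change was 0.37. A tract at the annotated start was found in 12 of the 17 matched to the promoter table. The elongation factor EEF1A1 was higher by 0.60 ± 0.0286 and TPT1, the translationally controlled tumour protein, by 0.74 ± 0.0406. GAS5, a noncoding host of small nucleolar RNAs, had the largest rise of the list, from 37.0, 42.0 and 40.3 to 102, 114 and 110.0 CPM (1.45 ± 0.0615, edgeR's adjusted p = 1.2e-08), and FAU the largest fall. The window of GAS5 held no tract at the annotated start. FAU and RACK1, which encode ribosomal proteins, are part of this list too.

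Among 52 ribosome assembly factors, 17 (32.7%) were higher, near the 31.7% of all genes, and 25 (48.1%) lower, against 30.6%. Their median was -0.12. EFL1, the GTPase that releases EIF6 from the new large subunit, had the largest rise (0.76 ± 0.0594), and BOP1, of the complex that processes large subunit RNA, the largest fall (-0.99 ± 0.0565). The 8 chaperones of single ribosomal proteins had 1 rise (12.5%), LTV1 (0.32 ± 0.0888), and 4 falls (50.0%), the largest in GRWD1, the chaperone of RPL3 (-1.03 ± 0.0477). TSR2, which escorts RPS26 to the ribosome, was lower by -0.61 ± 0.0533 on the log2 scale. Of 15 genes of RNA polymerase I and its factors, 5 were higher and 5 lower (33.3% each), shares near those of all genes (31.7% and 30.6%). Their median was 0.10, from -1.54 ± 0.11 for POLR1G to 0.78 ± 0.0725 for TAF1D.

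Mitochondrial ribosomal proteins had more falls than rises, with 15 higher and 38 lower of 78 (19.2% and 48.7%, against 31.7% and 30.6% of all genes). Their median was -0.21, from -0.91 for MRPL12 to 0.53 for MRPS10. Translation initiation factors were divided, with 23 higher and 21 lower of 54 (42.6% and 38.9%) and a median of 0.028. EIF2S2, a subunit of the factor that brings the initiator tRNA, had the largest rise (0.85 ± 0.0602) and EIF5A the largest fall (-0.88 ± 0.0389). Of 22 regulators and sensors tested, 9 (40.9%) were higher and 6 (27.3%) lower, with a median of 0.042. MDM2 had the largest rise and AKT1S1, an inhibitor within mTORC1, the largest fall (-0.87 ± 0.0404). LARP1, the protein that binds oligopyrimidine tracts, was not called, at 307, 342 and 336 CPM with PBS and 322, 299.8 and 304 CPM with rhSema3C, with an interval of -0.19 to 0.0086. MYC, a driver of ribosome synthesis, was not called either, at 68.5, 78.3 and 71.2 and 80.5, 72.7 and 71.1 CPM, with an interval of -0.083 to 0.17. The difference between these lists and the members was not tested. The list values are given without the GC trend removed. GC content was 57.6% to 65.2% in FAU, POLR1G, GRWD1, AKT1S1 and BOP1, the largest falls of their lists. It was 41.7% to 45.1% in LTV1, MDM2, GAS5, TAF1D and EFL1, the largest rises of those lists. The part of GC content in these values was not tested.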

How the data were processed

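RNA of 6 LX-2 samples was extracted with TRIzol, made into libraries with a SMARTER mRNA-seq kit and sequenced on a NovaSeq instrument, per the labels and the study's methods. For each gene the authors deposited a raw count and an FPKM value, which they scaled to gene length and library size. The methods name Cufflinks. The aligner, counting tool and genome build are not given in the sources used here, and 32842 of 32887 gene spans with a GENCODE v29 identifier overlap its span on GRCh38. Groups came from the labels.

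Counts were fitted with edgeR 4.0.16 (R 4.3.3), TMM factors and the quasi-likelihood test on genes averaging 0.5 FPKM or more, adjusted by Benjamini-Hochberg. Standard errors are the log2 fold change over the root of the F statistic. Intervals assume a normal distribution. The common biological coefficient of variation was 0.117. On simulated counts of 14178 genes with 200 changed, 96% were recovered with 8 false calls. The simulated folds were all larger than the members' median fold of 1.16, so recovery of changes that small was not tested. In the 6 libraries 62.3% of genes were called, and recovery with that many genes changed was not tested. DESeq2 1.42.0 and limma 3.58.1 served as alternatives, with a pseudocount of 1 or 0.1 on FPKM. Figures used matplotlib 3.10.9.

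Values per sample were given for the 6 largest rises and falls (adjusted p below 0.05, mean FPKM of at least 5), the 3 highest FPKM of each subunit, members with fixed roles, and variant copies. RPS14, RPS29, RPL4, RPL14, RPL19, RPL21, EEF1A1, TPT1, TSR2 and members listed by chromosome or GC trend fall outside that rule and were named after their values were seen. A few genes are not reported here by name, but counts and medians include them. The members and lists were chosen with earlier results of these data known. With 3 samples per group, an exact permutation test of a single value cannot give a two-sided p below 0.1, so none is printed. No molecular identifiers were used, so counts are not counted molecules.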

Additional observations from a re-analysis of the deposited data

How the results depend on the processing

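Over 21 alternative settings, the count of higher members ran from 43 to 63 and the medians of the members and of each subunit, and the difference between the subunits, stayed above 0. The share of all genes called higher ran from 12.5% with no filter on low genes to 48.9% with TPM, the setting with 63 higher members. The count of 20 lower members moved most, to 12 with library size alone, 12 with a mean FPKM of at least 5, 11 with limma on log2(FPKM + 1), 12 on log2(FPKM + 0.1), 3 on log2(TPM + 1), 8 with length and GC trends removed and 7 with the GC trend alone removed. Of all genes, 24.1%, 37.3%, 24.4%, 24.3%, 17.1%, 28.5% and 28.4% were lower in these settings. The median of the members (0.22) became 0.33, 0.32, 0.31, 0.32 and 0.45 in the first 5 of these, that of the large subunit (0.24) 0.34, 0.34, 0.32, 0.34 and 0.46, and that of the small subunit (0.19) 0.30, 0.30, 0.29, 0.30 and 0.42. The difference between the subunit medians (0.041) became 0.012 without length and GC trends, 0.010 without the GC trend and 0.024 without the length trend. On the log2 scale the members' share of counts rose by 0.20, or by 0.31 as a share of FPKM, 0.18 without mitochondrial genes and 0.19 with pseudogenes. The cause of these shifts was not tested.

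With each library left out in turn, 43 to 46 members were higher and 14 to 20 lower (28.7% to 30.3% and 28.1% to 29.6% of all genes), the median was 0.18 to 0.27, that of the large subunit 0.19 to 0.28, that of the small subunit 0.17 to 0.23, their difference 0.027 to 0.052 and the share change 0.18 to 0.22. The same-numbered replicates did not clearly deviate together (r of 0.031, 0.093 and -0.024 over all genes, and 0.016, -0.36 and 0.14 over the members). No pairing by number was seen, though 3 replicates per group cannot exclude it. With a replicate block 46 members were higher and 17 lower (29.8% and 29.1% of all genes), with a median of 0.22.

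Of 27 named members called, 15 kept their direction and call in every setting. Signs turned for RPLP1 (0.082 with TPM), RPLP2 (0.036 with TPM, 0.087 and 0.097 without length and GC or GC trends), RPS2 (0.024, 0.066 and 0.073 in the same order) and RPL36AL (-0.078 and -0.065 without those trends). Among members not called, RPL22L1 became -0.13 and -0.13 and RPS27L -0.24 and -0.23 without those trends. RPL3 (0.030 without rhSema3C replicate 2) became -0.0045 with RLE factors, -0.0050 with no filter, -0.011 with filterByExpr, -0.0045 with DESeq2, -0.018 without PBS replicate 3 and -0.013 without rhSema3C replicate 1. RPL13A became 0.065 with library size alone, 0.062 at FPKM 5, 0.060 and 0.060 with limma on FPKM, 0.18 with TPM, 0.13, 0.13 and 0.0030 without length and GC, GC or length trends, and RPS3, in the same order, 0.076, 0.072, 0.069, 0.069, 0.19, 0.055, 0.061 and 0.010. With library size alone and with TPM, RPLP0 (0.16 and 0.28), RPL3 (0.12 and 0.24), RPL22L1 (0.25 and 0.35) and RPS27L (0.21 and 0.31) were called higher. In these settings 39.9% and 48.9% of all genes were higher. RPL13A and RPS3 were called higher with TPM, and RPS27L was called lower without the GC trend.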
